A study of Homo sapiens with 6 samples.

Results

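Interferon-stimulated genes were examined as 52 named genes that cells switch on after exposure to interferon, and V5-GSE1 peaks were sought at each of them. A gene was counted as having a peak where a peak overlapped its GENCODE span (version 44, build hg38) extended by 20 kb on each side. All 52 genes were found among 20033 protein-coding genes on chromosomes 1 to 22, X and Y, and they lay on 16 chromosomes. In all, 20 of the 52 had a peak in the DMSO list and 4 had one in the MC2580 list. Their windows held 25 of the 21401 DMSO peaks and 4 of the 13233 MC2580 peaks.

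NB4 cells, an acute promyelocytic leukaemia line, had been transduced with the lentiviral vector pLEX_307 carrying V5-tagged GSE1 (transcript variant 2) or with the empty vector (EV), and chromatin was precipitated with an antibody to V5. The V5-GSE1 cells received 2 µM MC2580, which inhibits LSD1, a histone demethylase, or the vehicle DMSO for 24 h. The series held 6 libraries, 3 V5 ChIPs and 3 inputs, with 1 library per group. Only the 2 V5-GSE1 ChIPs had a peak list. The EV ChIP and the inputs served the authors as background, were not analysed here, and the EV ChIP was common to both lists. The tagged GSE1 was expressed from an added promoter beside the endogenous gene, and its amount in each chromatin sample was not measured here, so fewer peaks and less V5-GSE1 protein cannot be told apart. Since DMSO and MC2580 had 1 library each, no spread between replicates could be had and nothing was tested between them, so each difference is one between these libraries. Each peak carries a score, minus 10 times the log10 of the peak caller's p-value, which grows with sequencing depth. That depth was unknown.

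Interferons act through cell-surface receptors and JAK kinases. Type I and type III interferons activate a complex of STAT proteins with IRF9 that binds the interferon-stimulated response element (ISRE) in promoters, and interferon gamma activates STAT dimers that bind the gamma-activated site (GAS). The products block viral entry, translation and replication, sense foreign nucleic acids, attach the ubiquitin-like protein ISG15 or ADP-ribose to other proteins, and present antigens. GSE1 is a subunit of corepressor complexes that contain histone deacetylases and LSD1.

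The first set of sequences below comes from genes whose DMSO peak covered an own annotated start site, with 1 gene per cluster. IFI16, a neighbour of AIM2, is therefore not among them. These sequences are given so that the position of the ISRE letters can be set against that of V5-GSE1. The ISRE letters searched were GAAANNGAAA, on both strands, where N is any base. The first set consists of bases before the RefSeq start site (promoters from RefSeq, GRCh38.p14), printed 5′ to 3′ in the direction of the gene with the ISRE letters in capitals. The IFIT3 stretch lies at chr10:89332279-89332513 on the plus strand, 481 bp before the start of its DMSO peak. The AIM2 stretch lies at chr1:159076767-159077016 on the minus strand, and all of its 250 bases are inside a DMSO peak. The IFITM3 stretch lies at chr11:320861-321110 on the minus strand, 5778 bp from the nearest DMSO peak. For BST2, whose promoter overlaps exons of the divergent gene MVB12A, only 30 bases at chr19:17405738-17405767 on the minus strand are shown. All 30 are exonic, and they hold 2 overlapping ISRE matches.
IFIT3: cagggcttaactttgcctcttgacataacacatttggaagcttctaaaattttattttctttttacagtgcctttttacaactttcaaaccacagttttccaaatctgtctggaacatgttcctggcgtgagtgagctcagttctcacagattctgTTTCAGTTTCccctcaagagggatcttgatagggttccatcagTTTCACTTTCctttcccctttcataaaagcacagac
AIM2: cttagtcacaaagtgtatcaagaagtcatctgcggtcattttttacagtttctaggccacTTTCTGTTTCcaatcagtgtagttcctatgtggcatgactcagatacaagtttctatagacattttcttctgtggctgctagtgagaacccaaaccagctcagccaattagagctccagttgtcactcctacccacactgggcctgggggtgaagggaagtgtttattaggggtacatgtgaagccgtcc
IFITM3: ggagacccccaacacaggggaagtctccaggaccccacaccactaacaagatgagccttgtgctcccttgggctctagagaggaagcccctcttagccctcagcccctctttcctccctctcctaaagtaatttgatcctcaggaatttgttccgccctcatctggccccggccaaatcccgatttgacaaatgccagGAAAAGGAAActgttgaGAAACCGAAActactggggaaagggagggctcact
BST2: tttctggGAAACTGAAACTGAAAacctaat

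The second set holds the 200 bases at the centre of 3 promoter peaks of the DMSO list, on the plus strand of hg38, chosen after their contents were seen. The AIM2 peak centre at chr1:159077187-159077386 has 2 GAS words (TTCNNNGAA) in capitals. The XAF1 centre at chr17:6752626-6752825 has in capitals 1 EICE word, GGAANNGAAA, the composite site of ETS factors such as PU.1 with an IRF protein. The SAMD9L centre at chr7:93150775-93150974 has in capitals 1 GAS word and, farther on, 1 EICE word.
AIM2: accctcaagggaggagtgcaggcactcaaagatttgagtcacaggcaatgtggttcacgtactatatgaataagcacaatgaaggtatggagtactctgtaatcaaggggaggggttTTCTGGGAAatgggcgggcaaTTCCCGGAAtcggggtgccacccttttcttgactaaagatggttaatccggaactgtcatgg
XAF1: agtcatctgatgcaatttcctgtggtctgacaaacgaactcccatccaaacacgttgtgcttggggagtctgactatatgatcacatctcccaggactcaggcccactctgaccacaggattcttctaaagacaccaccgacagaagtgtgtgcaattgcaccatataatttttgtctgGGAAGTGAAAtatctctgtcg
SAMD9L: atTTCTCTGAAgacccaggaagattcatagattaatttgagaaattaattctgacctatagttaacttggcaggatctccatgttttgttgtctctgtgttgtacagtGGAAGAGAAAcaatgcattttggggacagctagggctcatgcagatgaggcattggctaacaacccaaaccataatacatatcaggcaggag

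The first question was how many of the genes carried V5-GSE1 at all. In DMSO 20 of 52 genes had a peak within 20 kb, or 38.5% (Wilson 95% interval 26.5 to 52, counting error only), against 36.2% of all protein-coding genes. A peak within 3 kb of an own transcription start site (TSS), called a promoter peak here, was listed for 10 genes, or 19.2% (10.8 to 31.9), against 16.1%. The share of these genes with V5-GSE1 in DMSO was thus close to that of the genome as a whole. Some 1 Mb bins of the genome held 40 or more peaks, and 1370 coding genes but none of the 52 started in them. Outside these 118 peak-dense bins the shares of all genes were 32.3% within 20 kb and 12.4% at promoters, both inside the intervals of the 52 genes.

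After MC2580 4 of 52 genes had a peak within 20 kb, or 7.69% (3.03 to 18.2), against 20.1% of all coding genes and 15.6% outside peak-dense bins. The interval lay below the first share and included the second. AIM2 alone had a promoter peak, 1.92% of the genes (0.34 to 10.1), against 7.87% of all genes and 4.54% outside peak-dense bins. Of the 52 genes 17 had a peak in DMSO only, 3 in both lists (UBE2L6, AIM2 and CXCL10), 1 in MC2580 only (IFIT2) and 31 in neither. As shares of the 52 these were 32.7, 5.77, 1.92 and 59.6%, beside 18.5, 17.8, 2.37 and 61.4% of all coding genes and 19.1, 13.3, 2.36 and 65.3% of those outside peak-dense bins.

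**Figure D1:**
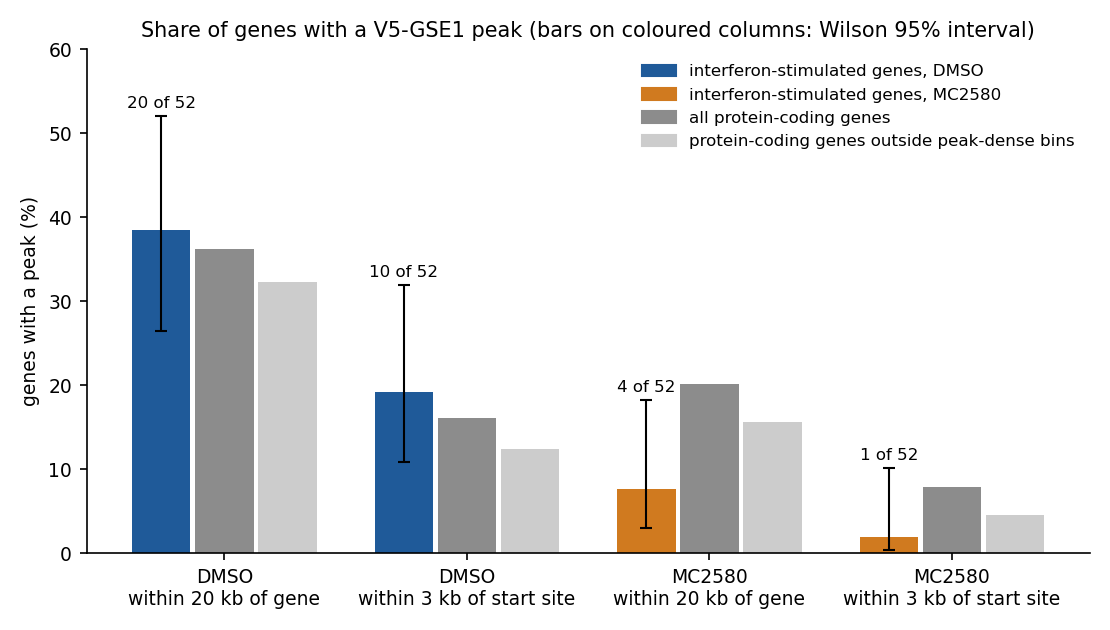
Share of genes (%) with a peak within 20 kb of the gene or within 3 kb of a start site, in the DMSO and the MC2580 list. Coloured columns are the 52 interferon-stimulated genes with Wilson 95% intervals, dark grey all 20033 protein-coding genes and light grey the 18663 outside peak-dense bins. The DMSO columns stand near the grey ones, and the MC2580 columns, 4 and 1 of 52 genes, stand below them.

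Among the IFIT proteins, which bind viral RNA and the translation machinery and lie side by side on chromosome 10, IFIT3 and IFIT1 had promoter peaks in DMSO. The IFIT3 peak at chr10:89332995-89334458 had a score of 537.37, the highest at any of the 52 genes. It began 466 bp downstream of the RefSeq start site nearest to it, whose promoter is printed above, and 4998 bp downstream of the MANE Select start, the reference start of the gene. It also covered the start of a shorter annotated transcript, and the whole interval lies inside the overlapping gene LIPA, a lysosomal lipase. The IFIT1 peak at chr10:89392863-89393683 scored 56.01, close to the calling threshold of 50, and began 240 bp downstream of the start site. A further DMSO peak at chr10:89384640-89385561, score 98.32, lay between IFIT3 and IFIT1, 6985 bp upstream of the IFIT1 start, with IFIT1B as its nearest coding start.

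None of these 3 peaks overlapped an MC2580 peak, and the MC2580 peak nearest to the IFIT3 peak was 67773 bp away. That MC2580 peak, at chr10:89264356-89265222 with a score of 68.46, was the only one in the cluster. It fell in LIPA, 18472 bp upstream of IFIT2, which had no DMSO peak within 20 kb. The DMSO peak nearest to IFIT2 was the IFIT3 peak, at 23724 bp. IFIT5, at the far end of the cluster, was 20885 bp from the IFIT1 peak and so fell just outside the window.

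The PYHIN genes on chromosome 1 encode sensors of DNA, among them AIM2, which starts the inflammasome, and IFI16, a nuclear sensor. The AIM2 peak at chr1:159076444-159078130 scored 535.2 in DMSO and covered the start site, the RefSeq promoter printed above and its ISRE word. In MC2580 a peak of 868 bp at chr1:159077139-159078006 scored 108.53. It lay wholly inside the DMSO peak, covered 51.5% of it and ended 373 bp upstream of the start site, so that the promoter ISRE word was no longer inside a listed peak. A second DMSO peak at AIM2, chr1:159067994-159068835 with a score of 85.13, lay 4430 bp downstream of a start site and had no MC2580 overlap. It was also within 20 kb of IFI16.

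IFI16 had its own DMSO peak at chr1:159009590-159010602, with a score of 147, across the start site. The nearest MC2580 peak was 66537 bp from it. MNDA, a myeloid nuclear protein, missed the window by a short distance, since a DMSO peak with a score of 605.46 lay 20326 bp from the gene. PYHIN1 had no peak within 20 kb in either list. AIM2 was the sole gene of the 52 with V5-GSE1 at the promoter in both lists.

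BST2 encodes tetherin, which holds budding virus particles at the cell surface, and its start site lay among a pair of adjacent DMSO peaks. The first, at chr19:17404634-17405741, scored 222.81 and covered the start site. The second, at chr19:17405802-17407069, scored 526.14, began 172 bp upstream of the start site and covered a start site of MVB12A, a sorting-complex subunit transcribed in the opposite direction. The peaks were 60 bp apart, and the 2 ISRE matches of the BST2 promoter lay in that gap, 4 and 10 bp from the first peak. Neither peak overlapped an MC2580 peak, the nearest of which was 116028 bp away. The stronger peak cannot be assigned to BST2 rather than MVB12A by position.

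**Figure D2:**
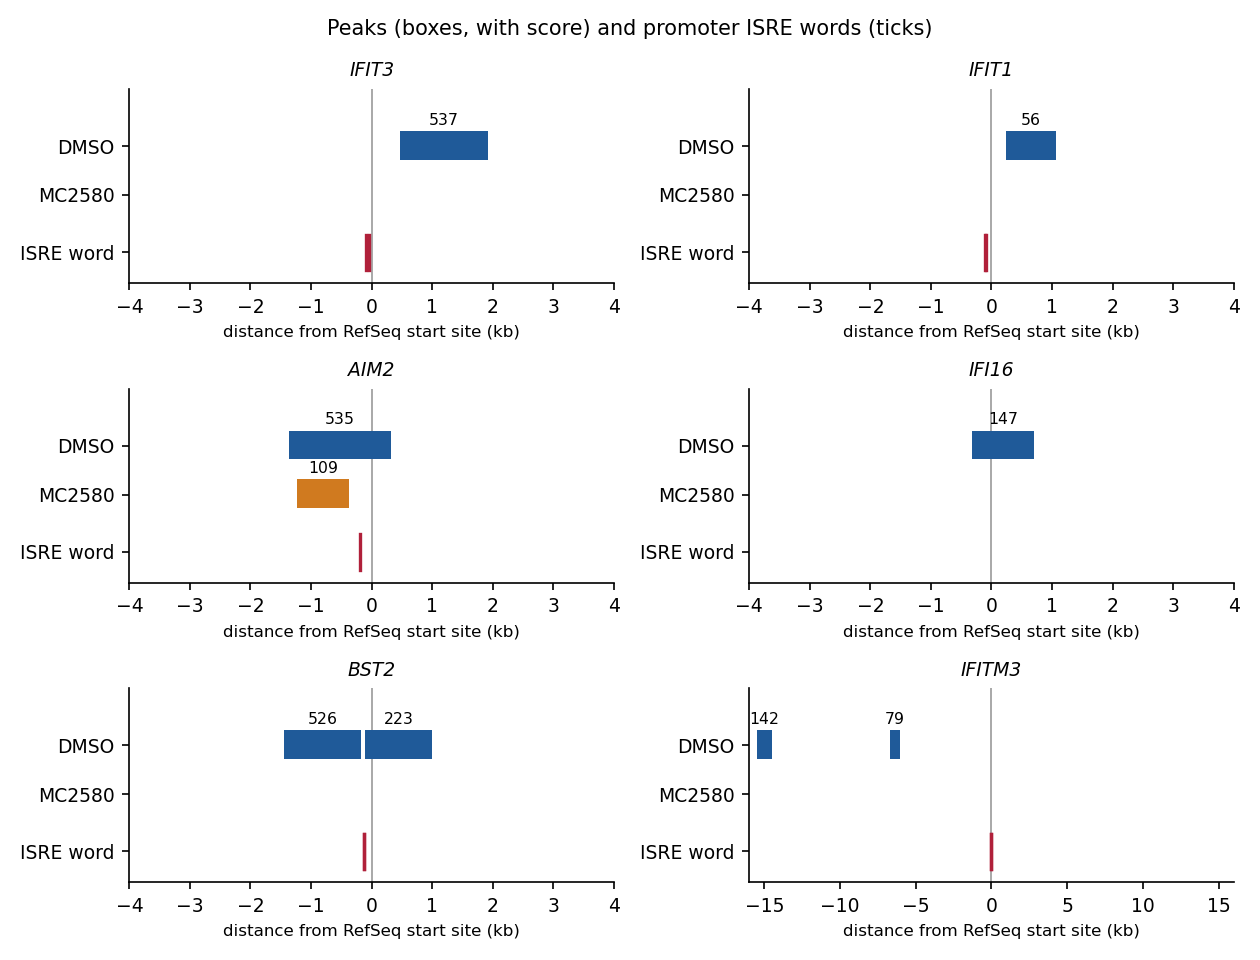
Peaks at 6 genes by distance (kb) from the RefSeq start site nearest to the peak, negative values being upstream. Blue boxes are DMSO peaks and orange boxes MC2580 peaks, with their scores, and red ticks are ISRE matches in the promoter of that RefSeq start. The IFIT3 matches at its MANE Select start are not drawn. AIM2 is the gene with boxes in both lists, its ISRE match lies under the DMSO box, and the BST2 matches fall between its DMSO boxes.

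The remaining promoter peaks of the DMSO list were weak. IFITM3, a membrane protein that blocks viral fusion, had a peak at chr11:326889-327565 with a score of 79.22, which covered the start of an alternative transcript and lay 6029 bp upstream of the RefSeq start. The same peak was within 20 kb of IFITM1 and IFITM2, and IFITM3 had 2 more upstream peaks, with scores of 142.31 at 5857 bp and 82.11 at 18587 bp from its nearest start. All 3 IFITM genes therefore had a DMSO peak and none had an MC2580 peak. MX2, a GTPase that restricts retroviruses, had a peak at chr21:41396530-41397315 with a score of 78.36, inside an intron. It was 1670 bp from the start of a short transcript but 34503 bp from the MANE Select start, and its neighbour MX1 had no peak, the MX2 peak being 22705 bp away.

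RSAD2 encodes viperin, a radical enzyme that makes a chain-terminating nucleotide, and CMPK2, the kinase that supplies its substrate, lies next to it. A peak at chr2:6880185-6880853, score 56.19, lay 1391 bp downstream of an RSAD2 start and 13550 bp from CMPK2. A stronger peak at chr2:6909378-6910415, score 170.85, was 30584 bp downstream of the RSAD2 start and nearer to RNF144A. SAMD9L, a restriction factor of poxviruses, had a peak at chr7:93150332-93151417, score 77.26, 1947 bp upstream of its start, while SAMD9 had none. XAF1, which promotes apoptosis, had a peak at chr17:6752273-6753179, score 67.64, 2268 bp upstream. None of these peaks overlapped an MC2580 peak. IFI6 and IFI27, mitochondrial proteins listed with XAF1, had no peak in either list.

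Peaks of the other genes lay farther from their start sites. In the ISG15 conjugation group, ISG15 itself had a DMSO peak at chr1:1004695-1005395, score 61.31, 3550 bp downstream of an alternative start and 8102 bp from the RefSeq start. UBE2L6, the conjugating enzyme for ISG15, had DMSO peaks of 67.85 and 102.89 on either side of the gene, the first of them 121 bp from the start of TIMM10, and a separate MC2580 peak at chr11:57553750-57554562, score 56.54, within the gene. The 3 UBE2L6 peaks did not overlap, so the gene was counted in both lists without a shared position. The protease USP18 and the ligases HERC5 and HERC6 had no peak.

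In the ADP-ribosylation group PARP9 and its partner DTX3L shared a DMSO peak of 54.75, PARP9 had another of 54.92, and PARP14 had none. IFIH1, the cytoplasmic RNA sensor MDA5, had a DMSO peak of 53.05 at 17015 bp from a start site, beyond the end of the gene. IFI35, a partner of NMI, had a peak of 107.94 that lay 592 bp from the start of VAT1. CXCL10, a chemokine that draws T cells, had DMSO peaks of 141.64 and 80.35 and an MC2580 peak of 51.68, all inside the neighbouring chemokine gene CXCL9. The MC2580 peak at chr4:76001509-76002369 lay inside the DMSO peak at chr4:76001467-76002384 and covered 93.8% of it. It was 21128 bp from the CXCL10 start and 5140 bp from that of CXCL9. Over the 25 DMSO peaks, a gene among the 52 owned the nearest coding start in 15 cases and another gene in 10.

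In all, 59.6% of the 52 genes and 61.4% of all coding genes had no peak in either list. Among the 52 this took in whole groups, several of them made up of neighbouring or overlapping genes. They were the 4 guanylate-binding proteins (GBP1, GBP2, GBP4 and GBP5, which attack vacuoles of intracellular pathogens), the 3 TRIM ligases (TRIM5, TRIM21 and TRIM22), IFI44 with IFI44L, the nuclear body proteins SP100 and SP110, and TAP1 with PSMB9, the peptide transporter and proteasome subunit of antigen presentation. STAT2, the factor shared by type I and type III signalling, was 119855 bp from a DMSO peak. EIF2AK2 (the kinase PKR), the RNA-editing enzyme ADAR, the exonuclease ISG20, NMI, LGALS3BP and EPSTI1 had none either. For the 32 genes without a DMSO peak, the nearest one was 20326 to 1235565 bp away (median 114943), and 11 had one within 50 kb. For the 48 genes without an MC2580 peak, the nearest was 21984 to 11111179 bp away (median 355577), and 2 had one within 50 kb. These genes were thus mostly far from any listed MC2580 peak. So were most coding genes, of which 27.3% had an MC2580 peak within 50 kb.

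The strength of the peaks was then described. The 25 DMSO peaks scored 53.05 to 537.37 with a median of 82.11, beside a median of 91.08 over all DMSO peaks. Of the 25, 15 (60%) scored under 100, beside 55.7% of all DMSO peaks, and 3 (12%) scored 500 or more, beside 5.78%. Those 3 were at IFIT3, AIM2 and BST2, and all were promoter peaks. The 14 peaks more than 3 kb from a start site reached at most 170.85, with a median of 83.62, close to the median of 79.22 of the 11 promoter peaks. The 4 MC2580 peaks scored 51.68 to 108.53 with a median of 62.5, beside 78.1 over all MC2580 peaks. Peaks were 669 to 1687 bp wide in DMSO (median 907) and 813 to 868 bp in MC2580 (median 864). The medians over all peaks were 1000 bp in DMSO and 928 bp in MC2580.

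**Figure D3:**
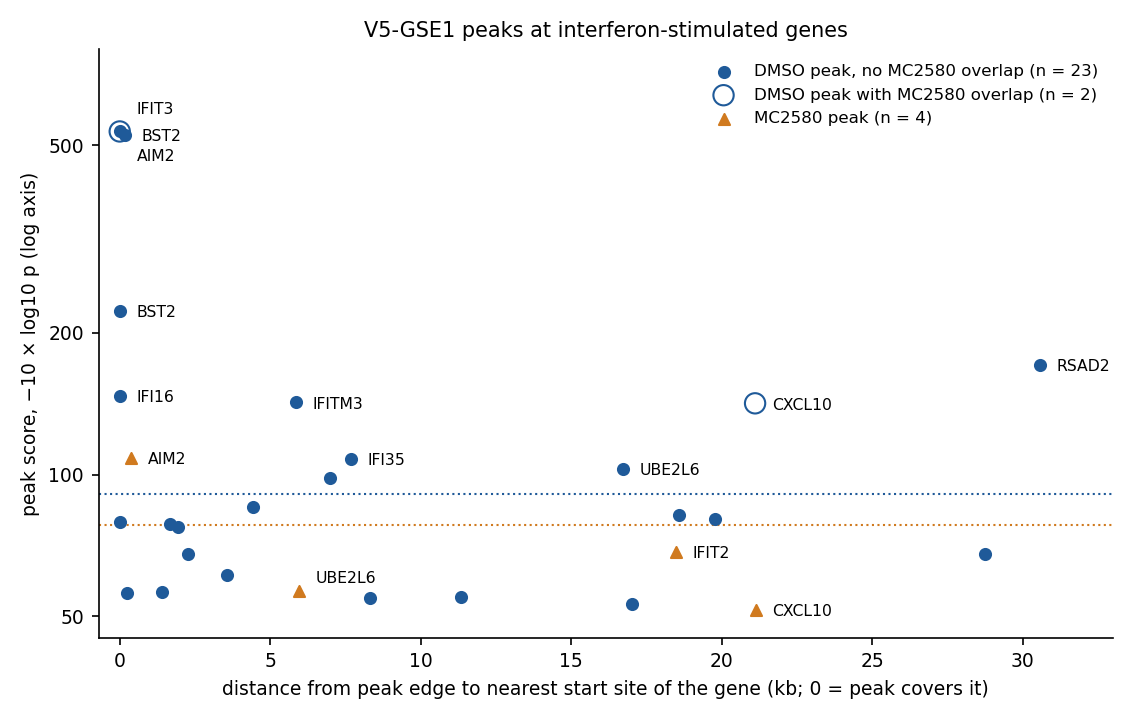
Score (log axis) of each distinct peak at the 52 genes against the distance (kb) from the peak's edge to the nearest start site of the gene, with names for peaks scoring 100 or more and for MC2580 peaks. Filled circles are DMSO peaks without MC2580 overlap, open circles DMSO peaks with it, triangles MC2580 peaks, and dotted lines the medians of all DMSO (91.08) and all MC2580 (78.1) peaks. The IFIT3 circle lies inside the open AIM2 circle. The 3 peaks above 500 lie at start sites, and the 4 MC2580 peaks lie between 51.68 and 108.53.

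Of the 25 DMSO peaks 23 had no 1 bp overlap with an MC2580 peak, a share of 92% (Wilson 95% interval 75 to 97.8), against 66.4% of all DMSO peaks and 77.2% of those outside peak-dense bins. The interval lay above the first share and included the second. The 2 positions found in both lists were the AIM2 promoter and the stronger CXCL10 peak. There the score was 535.2 in DMSO against 108.53 in MC2580 at AIM2, and 141.64 against 51.68 at CXCL10. Of 2415 overlapping pairs outside peak-dense bins, 38.6% had an MC2580 to DMSO score ratio at or below that of CXCL10. For AIM2 this was 11.3%. At promoters 10 of 11 peaks had no overlap, beside 68.6% of all DMSO promoter peaks of coding genes and 80.6% of those outside peak-dense bins, and 6 of the 11 scored under 100. For the 23 peaks the nearest MC2580 peak was 435 to 971072 bp away, with a median of 119418 bp, and 2 had one within 20 kb, at CXCL10 and AIM2.

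Weak DMSO peaks were absent from the MC2580 list more often than strong ones throughout the genome, so the 25 peaks were read by score. Outside peak-dense bins 95.6% of DMSO peaks scoring 50 to 75 had no MC2580 overlap, and at the 52 genes 8 of 8 had none. In the class from 75 to 100 the values were 91.9% and 7 of 7, and from 100 to 200 they were 76.2% and 5 of 6. In these classes the share at the interferon-stimulated genes was near that of the genome. From 200 to 500 the share over the genome was 43.2%, and the single peak there, at BST2, had no overlap. At 500 or more it was 9.13% (58 of 635 peaks), and of the 3 peaks the IFIT3 and BST2 peaks had no overlap and the AIM2 peak had one. This BST2 peak covers an MVB12A start and lies 60 bp from the BST2 peak of the class below, so 1 locus enters both classes. The IFIT3 peak lies inside LIPA, 4998 bp from the MANE Select start of IFIT3. In the narrower class from 500 to 600, chosen after the values of these peaks were known, 21 of 148 peaks outside peak-dense bins, or 14.2%, had no overlap. With 3 peaks the interval of the share, 20.8 to 93.9%, is wide.

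**Figure D4:**
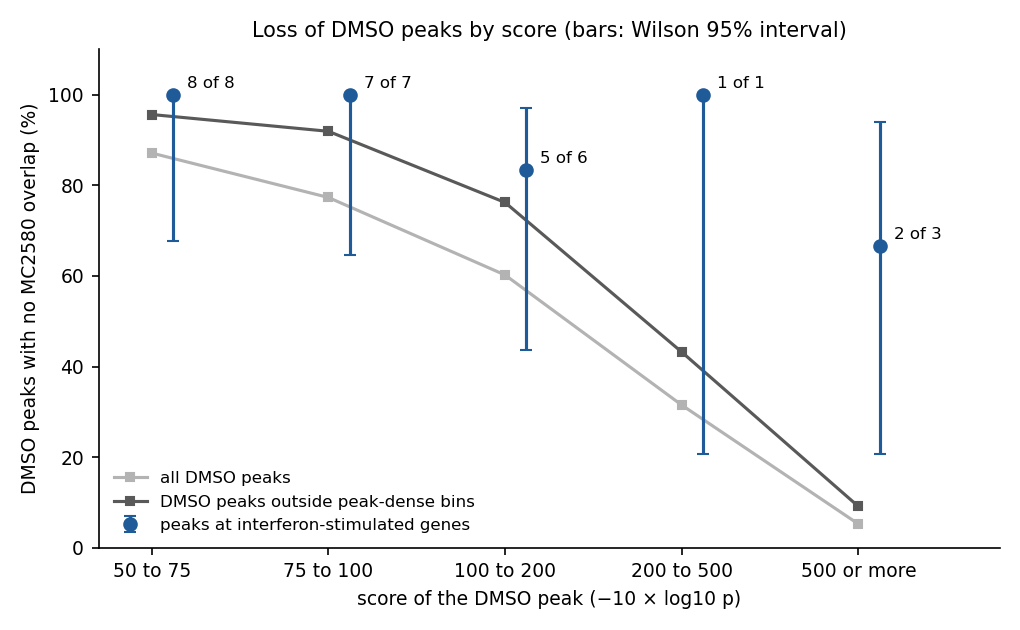
Share (%) of DMSO peaks with no MC2580 overlap by score class of the DMSO peak. Light grey squares are all DMSO peaks, dark grey squares those outside peak-dense bins, and blue circles the 25 peaks at interferon-stimulated genes with Wilson 95% intervals and counts. The blue circles follow the dark grey line up to a score of 200, and at 500 or more 2 of 3 peaks lack an overlap where the line is at 9.13%. The BST2 peaks, 60 bp apart, fall in separate classes.

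Sequence was compared next. The ISRE letters were not themselves used to choose the genes. Genes switched on by interferon would often hold them, however, so their frequency in this set is no independent result. RefSeq promoter windows, from 250 bases before to 50 after the start site, were at hand for 45 of the 52 genes. The ISRE letters were in the windows of 32 of them (71.1%), against 642 of 15345 protein-coding genes with a window (4.18%). The EICE letters were in 22.2% against 3.41%, and the GAS letters in 22.2% against 9.01%. The promoters of these genes were thus rich in interferon response letters, as a description of the set. Of the 32 genes AIM2 alone had its ISRE match inside a DMSO peak, against 27 of the 642 genes with a match (4.21%), and none had it inside an MC2580 peak, against 11 (1.71%), so that the set was near the background in both lists.

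The closest ISRE matches of BST2, IFIT1 and IFIT3 lay 4, 334 and 508 bp from the edge of a DMSO peak. Those of RSAD2 and IFITM3 were 2544 and 5977 bp away. The IFIT3 value holds for the RefSeq start nearest to the peak. Its matches at the MANE Select start were 5111 and 5145 bp from a DMSO peak. For the 32 genes together the closest match was 0 to 1235540 bp from a DMSO peak, with a median of 31939.5 bp, and it was within 1 kb for 4 genes. A promoter peak in DMSO was found for 6 of the 32 genes with the letters (18.8%) and for 3 of the 13 without them (23.1%). Over all coding genes with a window the shares were 17.9% with the letters and 16.8% without. The share was lower with the letters than without them in the set, by few genes, and slightly higher in the genome.

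**Figure D5:**
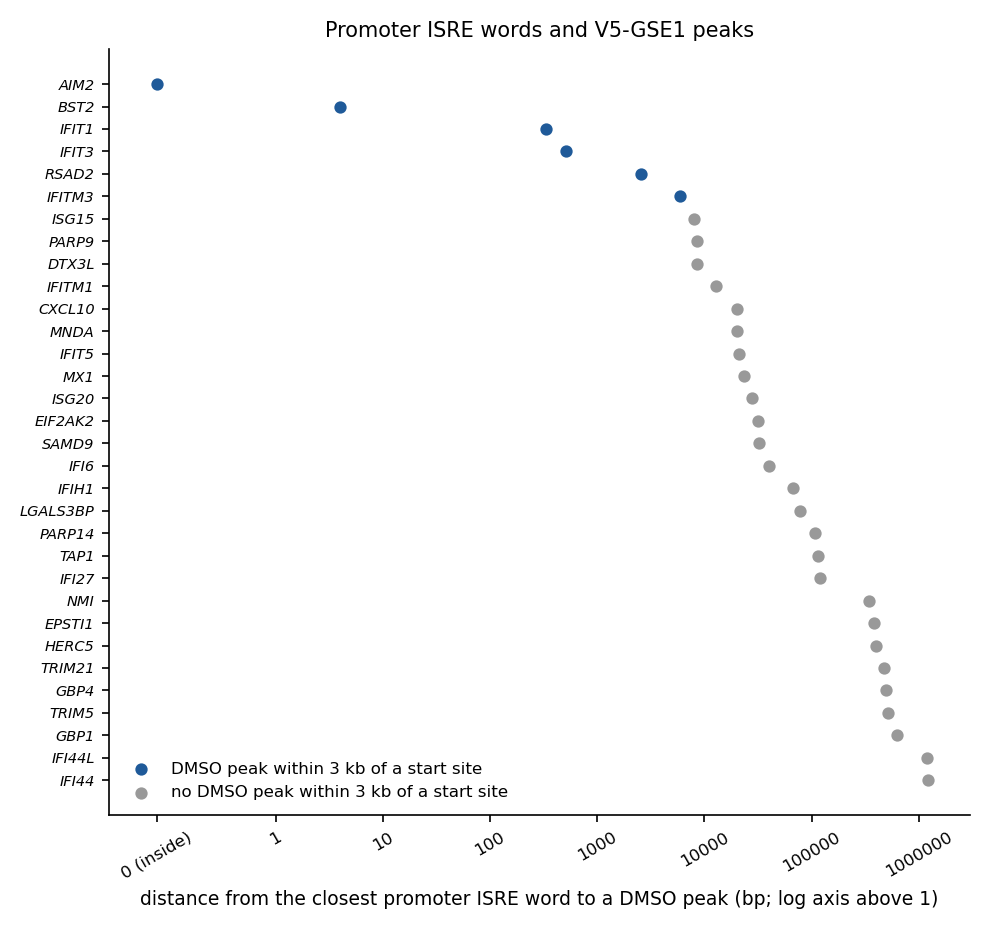
Distance (bp, log axis above 1) from the closest ISRE match in the RefSeq promoter to the nearest DMSO peak, for the 32 interferon-stimulated genes with a match. Blue points are genes with a DMSO peak within 3 kb of a start site and grey points the rest. AIM2 stands at 0, BST2, IFIT1 and IFIT3 lie within 508 bp, and the median is 31939.5 bp.

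Within the peaks, the 200 bases at the centre were searched on both strands for 6 words. The ISRE letters were in none of the 25 DMSO peak centres, against 2.98% of all DMSO peak centres. Whole peaks held them in 6 of 25 cases (24%), against 16.8%. GAS letters (TTCNNNGAA) were in 6 of 25 centres (24%), against 5.78%, namely at IFI16, AIM2, SAMD9L, CXCL10, the stronger RSAD2 peak and the UBE2L6 peak beside TIMM10. EICE letters were in 3 centres (12%), at XAF1, SAMD9L and IFIH1, against 2.46%. Over whole peaks the contrasts were smaller, with GAS letters in 44% against 28.9% and EICE letters in 24% against 12.4%. The PU.1 word GAGGAAGT was in 2 (8%, against 2.92% of all centres and 4.3% outside peak-dense bins), the RUNX word TGTGGTTT in 1 (4%, against 4.61% and 7.37%) and AAATCAC, a word of the repressor GFI1, in 1 (4%, against 3.74%). The ISRE and EICE words differ in the second letter, the EICE word can share GGAA with the PU.1 word, and each count rests on 25 peaks.

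The other genes of the interferon pathway, 23 receptors, kinases, factors, inhibitors and sensors, were counted in the same way. Of these 13 had a DMSO peak within 20 kb, 8 a DMSO promoter peak, 6 an MC2580 peak and 3 an MC2580 promoter peak, where the shares of all coding genes were 36.2, 16.1, 20.1 and 7.87%. Without JAK2, TYK2 and RIGI, which lay in peak-dense bins, the counts were 10, 5, 3 and 2 of 20 genes. The shares of all coding genes outside those bins were 32.3, 12.4, 15.6 and 4.54%. As shares of these few genes, both DMSO counts stood above that background. No interval was computed for them, so no difference from the background can be read. Receptor genes had a DMSO peak in 5 of 6 cases, but 4 of the 5 (IFNAR1, IFNAR2, IFNGR2 and IL10RB) are neighbours on chromosome 21. IFNLR1, the receptor chain for type III interferons, had a promoter peak of 431.51 in DMSO and 226.43 in MC2580, and IFNGR2, a chain of the interferon gamma receptor, had one of 127.97 in DMSO only.

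Among the sensing genes, STING1, the adaptor for cytoplasmic DNA, had a promoter peak in both lists, at 213.61 in DMSO and 75.74 in MC2580. The kinase gene TBK1 had a peak away from its promoter in both lists, at 577.75 and 203.21, while the related kinase gene IKBKE had a promoter peak of 300.15 in DMSO only. IRF9, JAK1 and the inhibitors SOCS1, SOCS3 and PIAS1 had no peak within 20 kb in either list. Promoter peaks common to both lists were therefore found at AIM2 among the 52 genes and at IFNLR1 and STING1 among the 20 pathway genes outside peak-dense bins.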

How the data were processed

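V5 ChIP-seq of NB4 cells was represented by 2 peak lists, 1 per treatment of V5-GSE1 cells, assigned to DMSO or MC2580 from the name of each list. According to its methods, reads were mapped by the authors to hg38 with Bowtie, unique reads with up to 2 mismatches were retained, and peaks were called with MACS at p = 1e-05 against the input and the EV ChIP. The way in which both backgrounds entered the calls is not given in the sources used here. There were no replicates to pool. The score values deposited by the authors are minus 10 times log10 of the p-value, so the threshold is 50. They were used as deposited. Depth was unknown.

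Gene spans, start sites and exons came from GENCODE 44, and promoter windows from RefSeq GRCh38.p14. Coordinates count from 1. Overlap required 1 bp. Genes with a peak within 3 kb of an own start site were named first, then those with a peak elsewhere in the 20 kb window, then those without. Promoter sequences were taken for up to 5 genes with the highest-scoring DMSO peak across an own start site, 1 per cluster. They were shortened where they ran into exons, but 30 of the 235 IFIT3 bases and all 30 BST2 bases are still exonic. The members, lists and words were chosen with earlier results of these data known. Shares carry Wilson 95% intervals that cover the error of counting alone, as neighbouring peaks are no replicates.

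Alternatives tried were scores of at least 100, no peaks wider than 7875 bp (the 99th percentile), no 1 Mb bins with 40 or more peaks, other gene windows, promoter distances, start sites and overlap rules, merging within 1 kb, as many top-scoring DMSO peaks as MC2580 peaks, and 400 bp word windows. The use of MANE Select start sites only was chosen after seeing the data. Overlap and word functions were tested on simulated data. Sequences were read with pysam 0.24.0, intervals computed with scipy 1.17.1, tables handled with pandas 2.3.3 and numpy 2.4.6 in Python 3.11.15, and plots drawn with matplotlib 3.10.9.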

Additional observations from a re-analysis of the deposited data

How the results depend on the processing

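No paired analysis was possible because each condition had 1 library. The share of DMSO peaks at the 52 genes without MC2580 overlap stayed between 87.5% and 92% under all 8 alternatives, but its place against the genome moved. With 50 kb windows its interval, 78.7 to 97.2%, lay above the 77.2% outside peak-dense bins. With scores of at least 100 in both lists its interval, 59.6 to 98.2%, included the share of all DMSO peaks, 66.3%, as it did with no extension (64.6 to 98.5%, beside 66.4%) and where 50% of both peaks had to overlap (75 to 97.8%, beside 76.4%). Leaving out peak-dense bins or the widest peaks changed no count of genes or peaks.

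The number of genes with a DMSO peak was 31 with 50 kb, 11 with no extension, 9 with scores of at least 100 and 13 with as many top-scoring DMSO peaks as MC2580 peaks, beside 47.9, 22.9, 22.3 and 27% of all coding genes. The MC2580 number was 6 with 50 kb, 2 with no extension and 1 with scores of at least 100, beside 27.3, 12.3 and 7.56%. Genes with a DMSO promoter peak numbered 5 with the 5′ end of the gene record only, 5 where the peak had to cover a start site, 6 within 1 kb, 4 with scores of at least 100 and 6 with the top-scoring peaks, beside 10.9, 7.57, 12.1, 8.83 and 11.2%. With MANE Select starts only they numbered 7, beside 11.1%. The MC2580 promoter peak of AIM2 was not counted (0) with the gene record's 5′ end or where a start site had to be covered, beside 4.75 and 3.14%. Distinct DMSO peaks numbered 12 with no extension and 10 with scores of at least 100, and MC2580 peaks 2 and 1. In 400 bp windows the EICE word was in 5, the GFI1 word in 4 and the PU.1 word in 5 of 25 DMSO peak centres, beside 4.65, 6.99 and 5.03% of all DMSO peak centres.

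Without replicates, depth and counts per peak, a gene without a listed peak is one without a peak at this threshold, not one shown to lack V5-GSE1.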
